A study of Mus musculus with 30 samples.

Results

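The interferon-inducible p200 genes and Aim2 were followed in RNA from MC38 tumours. The set holds 9 genes taken by symbol from the 55471 genes of the count table: Ifi202b, Ifi203, Ifi204, Ifi205, Ifi207, Ifi209, Ifi211, Ifi213 and Aim2. All 9 lie on chromosome 1 (GRCm38) between positions 173350879 and 174031810, a span that holds 22 annotated genes. Of the 9 genes, 8 had enough counts to be tested between groups. Ifi202b did not.

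MC38 is a mouse colon carcinoma line, and the tumours grew under the skin of female C57BL/6 mice aged 6 to 8 weeks. The tumour cells were wild type (WT) or had lost the function of B2m (B2mKO) or of Jak1 (Jak1KO) by mutation, so the mutations were in the tumour cells and the cells of the host kept both genes. Each genotype was treated on days 7, 10 and 13 with 100 µg of aPD1, which blocks the checkpoint receptor PD-1 on T cells, or with an IgG1 control antibody, and tumours were taken on day 14. Each of the 6 groups had 5 libraries, 30 in all. How many clones of mutated cells were used is not given in the sources used here, nor whether each library came from its own mouse. The p-values therefore measure only how far these libraries spread, which may be technical.

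Proteins of the p200 family carry HIN domains, which bind DNA, and most also carry a pyrin domain, through which they bind other pyrin-domain proteins. Aim2 binds DNA in the cytosol and recruits the adaptor Pycard (ASC), which activates caspase-1 in the structure called the inflammasome. Ifi204 is the mouse protein most often compared with human IFI16, a DNA sensor that acts through STING. Ifi202b makes a protein that lacks the pyrin domain and can hold Aim2 away from its adaptor, and C57BL/6 mice are known to express little of it. Ifi205 has been linked to the level of ASC in macrophages. Interferons raise most genes of the family by way of JAK kinases and the STAT and IRF transcription factors, and macrophages and other myeloid cells are the best known site of their expression. Jak1 serves the receptors of both type I and type II interferon, and B2m is the light chain of MHC class I.

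A short promoter element found in 5 of the members is printed here because Ifi203, Ifi205 and Ifi211, which differed most between B2mKO and Jak1KO tumours, are among the 5. The promoter windows are the 250 bases before each RefSeq transcript start (GRCm38.p6), and 8 of the 9 members have such a window. Ifi204 is not in the table used. The core of the interferon-stimulated response element (TTTC, any 2 bases, TTTC, on either strand) was found in 5 of the 8 members with a window (Ifi203, Ifi205, Ifi207, Ifi211 and Ifi213) and in all 4 of the other p200 genes with a window (Ifi206, Ifi208, Ifi214 and Mndal), against 2.98% of all 32851 windows. In the stretches below the 10 bases of the element, or of its nearest match, are in capitals, and each is read 5′ to 3′ on its gene's strand.
Ifi203: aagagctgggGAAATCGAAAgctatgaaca
Ifi205: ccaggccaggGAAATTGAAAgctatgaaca
Ifi207: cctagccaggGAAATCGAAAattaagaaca
Ifi211: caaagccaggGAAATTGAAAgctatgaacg
Ifi213: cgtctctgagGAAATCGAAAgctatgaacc
Ifi209: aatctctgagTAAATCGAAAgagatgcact

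The exact letters GAAATCGAAA were picked as the most common form of the core in the windows of the p200 genes themselves. They were found in 13 of the 32851 windows (0.0396%), and 7 of the 13 windows belonged to p200 genes, 3 of them to members. Because the letters were chosen from p200 genes, this count is a description and cannot test whether the element is enriched there. Counting positions from 1 at the 5′ end of the element, Ifi205 and Ifi211 carried C6T and Ifi209 carried G1T, which breaks the core. The 30-base stretches lie on chr1:173942508-173942537 for Ifi203, chr1:174031870-174031899 for Ifi205, chr1:173741831-173741860 for Ifi207, chr1:173913064-173913093 for Ifi211 and chr1:173599326-173599355 for Ifi213, all on the minus strand, and on chr1:173630770-173630799 on the plus strand for Ifi209. In the exon coordinates of the deposited tables, the element of Ifi203 lies in an intron and the other 5 lie upstream of the annotated gene, by 28 bases in Ifi211 and by 128 bases in Ifi209. The gamma-activated site TTCNNNGAA was found in 1 of the 8 members, Ifi202b, and in 7.02% of all windows. The windows of Ifi207 and Ifi211 are printed whole because they are the most alike of all pairs of members, with 216 of 250 bases identical in a global alignment (86.4%). In Jak1KO tumours Ifi211 was called lower than in WT under both antibodies and Ifi207 under aPD1 only, and the difference between the 2 genes was not tested.
Ifi207: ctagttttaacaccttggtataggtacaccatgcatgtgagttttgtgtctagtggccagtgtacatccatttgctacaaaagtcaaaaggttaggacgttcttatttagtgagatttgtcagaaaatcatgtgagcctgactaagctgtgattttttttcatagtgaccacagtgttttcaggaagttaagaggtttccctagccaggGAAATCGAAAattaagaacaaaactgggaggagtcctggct
Ifi211: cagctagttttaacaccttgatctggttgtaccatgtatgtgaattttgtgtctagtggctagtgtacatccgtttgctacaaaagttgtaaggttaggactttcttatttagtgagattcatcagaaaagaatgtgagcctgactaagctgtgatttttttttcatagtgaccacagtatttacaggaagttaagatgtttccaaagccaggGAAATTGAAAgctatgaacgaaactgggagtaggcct
The window of Ifi207 is chr1:173741810-173742059 and that of Ifi211 is chr1:173913047-173913296, both on the minus strand. A match of letters describes these windows and is not a measurement of binding.

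Total counts per library were between 17629795 and 25944701. The targeted genes were lower in the tumours labelled as mutant. B2m was at 3087 ± 910.2 CPM (counts scaled to the library's effective total; mean ± SD, n = 5) in WT IgG1 tumours and 617 ± 112 in B2mKO IgG1 tumours, and Jak1 was 232 ± 28.7 against 71.4 ± 4.98 in Jak1KO IgG1 tumours. B2m was also lower than in WT in Jak1KO IgG1 tumours, at 1203 ± 92.8 CPM, so low B2m is not particular to the B2mKO label. Jak1 was at 302.5 ± 19.1 CPM in B2mKO IgG1 tumours. Part of both transcripts remained, and host cells keep both genes. WT IgG1 replicate 3 and B2mKO aPD1 replicate 2 stood apart from their groups over all genes tested, with a median correlation of 0.957 and 0.955 with the other 4 libraries of the group, against 0.976 or more for every other library. Results are therefore also given without them. Of 8 simple epithelium markers, 5 passed the filter, 1 was at 0 in every group, and the summed level of the list was 2.03 to 31.3 CPM per library, while 12 of 12 macrophage and monocyte markers were detected in every group.

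On the scale per gene length (RPKM, CPM divided by the gene's exon length in kilobases), Ifi211 was the highest member in WT, with 19.2 ± 8.6 in WT IgG1 tumours and 30.9 ± 4.52 in WT aPD1 tumours. It was followed in WT IgG1 tumours by Ifi204 with 16.5 ± 9.32, Ifi207 with 11.4 ± 5.44, Ifi209 with 8.57 ± 4.6, Ifi203 with 6.73 ± 2.37, Aim2 with 4.55 ± 1.68, Ifi205 with 2.74 ± 0.871 and Ifi213 with 1.94 ± 0.91. Neighbours in this order differed by less than the larger of their SDs, except Aim2 and Ifi205. Ifi202b had 10 counts in all 30 libraries together and at most 2 in any of them. It had 0 counts in all 5 Jak1KO aPD1 libraries, which allows up to 0.130 to 0.15 CPM per library (3 counts of the library's total, for counting error only). The summed RPKM of the 9 genes was 71.6 ± 28.7 in WT IgG1, 109.5 ± 18.2 in WT aPD1, 118 ± 14.8 in B2mKO IgG1, 117 ± 21.8 in B2mKO aPD1, 47.5 ± 6.27 in Jak1KO IgG1 and 57.0 ± 10.3 in Jak1KO aPD1 tumours.

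Several members share sequence with each other, and reads that fit several places were not counted, so levels between members are uncertain for those. Of the 100-base words in the transcripts of Ifi211, 56.9% are also in another gene (37.3% in Ifi205). The share is 16.9% for Ifi209, whose words are shared with Ifi214, 15% for Ifi205, 10.7% for Ifi204, 3.3% for Ifi213, 2.84% for Ifi203 and 0.79% for Ifi207. Aim2 and Ifi202b share none. Of 50-base words more are shared: 72.8% for Ifi211, 33.75% for Ifi209, 20% for Ifi204, 18.6% for Ifi205 and 15.6% for Ifi213. The share of these shorter words is 12.2% for Ifi203, 7.29% for Ifi207, 0.63% for Aim2 and 0% for Ifi202b. No exon of a member overlaps an exon of another gene, so strand does not mix other transcripts into their counts.

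**Figure D1:**
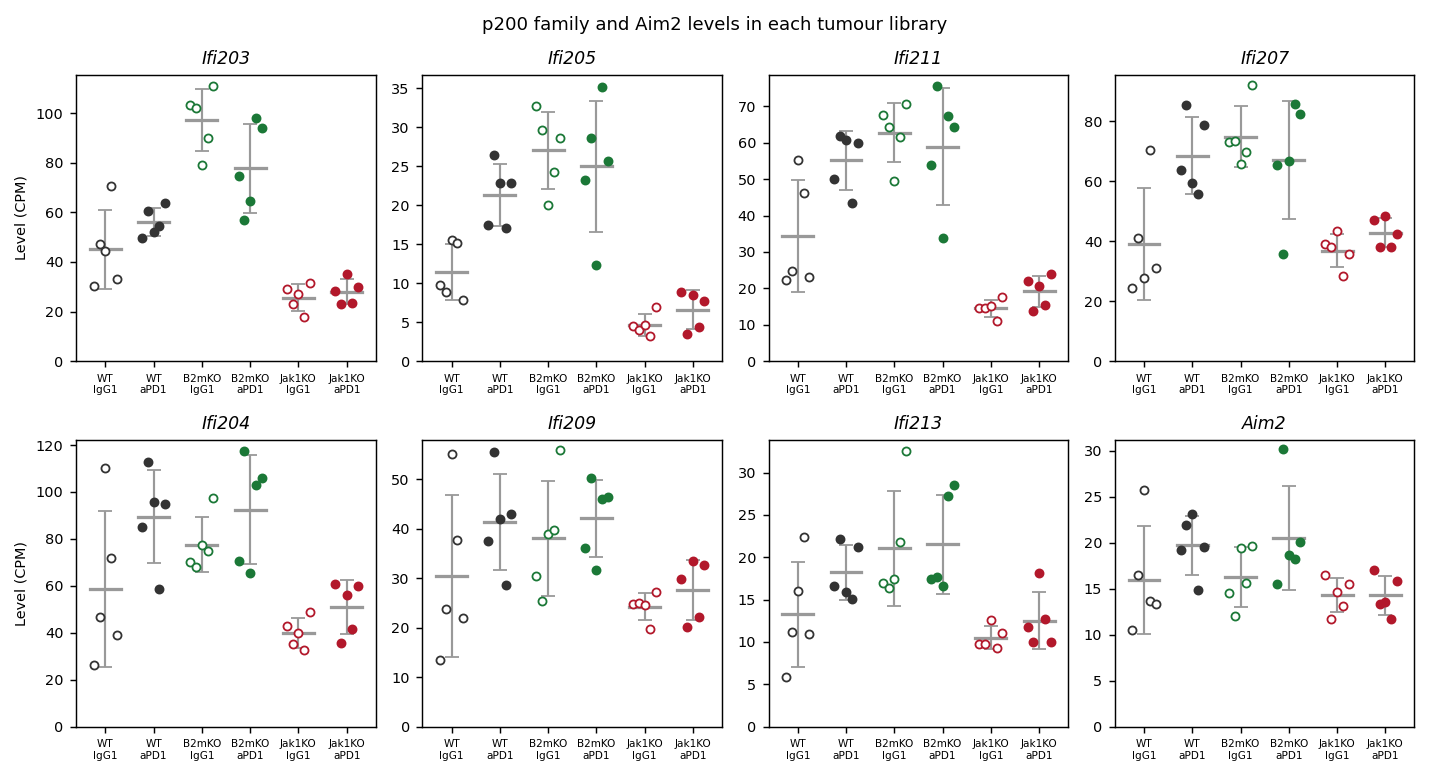
Level of each of the 8 tested genes in every library (vertical axes, CPM, starting at 0), by genotype and antibody (horizontal axis, 5 libraries per group; open points IgG1, filled points aPD1, grey lines mean ± SD). The Jak1KO libraries lie low for Ifi203, Ifi205 and Ifi211, and the ranges of all groups overlap for Aim2.

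Members were compared first between aPD1 and IgG1 in WT tumours, the comparison of the treatment in cells with both genes. All 8 tested members had a higher mean with aPD1, and 2 of the 8 rose past the threshold, Ifi207 and Ifi205 (edgeR, Benjamini-Hochberg adjusted p under 0.05), where 3.75% of the 15505 genes tested rose. The median log2 fold change of the 8 was 0.54, from 0.31 for Aim2 to 0.90 for Ifi205, beside a median of -0.03 over all genes tested.

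Ifi207 was at 24.4, 41.1, 27.7, 70.3 and 31.2 CPM in the 5 WT IgG1 libraries and at 63.7, 85.2, 59.3, 55.6 and 78.8 CPM in the 5 WT aPD1 libraries. A single control, replicate 4, reached into the range of the treated group. The log2 fold change was 0.82 ± 0.22 (SE), with an edgeR adjusted p of 0.0296.

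In the IgG1 libraries Ifi205 was at 9.78, 8.90, 15.5, 15.2 and 7.82 CPM, and in the aPD1 libraries at 17.5, 26.4, 22.9, 17.1 and 22.8 CPM. These groups did not overlap, which was so for 1.19% of all genes tested in this direction, and Ifi205 was the 1 member of 8 for which it held. The log2 fold change was 0.90 ± 0.26, with an edgeR adjusted p of 0.0386.

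Ifi211 came next, at 22.3, 24.7, 55.2, 46.2 and 23.1 CPM with IgG1 and at 50.0, 61.8, 60.7, 43.5 and 59.9 CPM with aPD1 (log2 fold change 0.69 ± 0.22, edgeR adjusted p = 0.0786, and past the threshold by DESeq2, by limma voom and without WT aPD1 replicate 4 or WT IgG1 replicate 3 or 4). WT IgG1 replicates 3 and 4 were inside the treated range, and the other 3 controls were near a common low level. Ifi204, the IFI16-like sensor, spread most among the controls, with 26.2, 46.5, 110.2, 71.7 and 39.2 CPM against 85.1, 113, 95.8, 58.8 and 94.7 CPM with aPD1 (0.61 ± 0.26, edgeR adjusted p = 0.202). Its highest control, replicate 3, was above 4 of the 5 treated libraries. Ifi209 ranked the 5 controls in the same order, with 13.5, 23.7, 55.1, 37.7 and 21.9 CPM against 37.5, 55.5, 42.0, 28.6 and 43.0 CPM.

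For Ifi203 the difference was 0.31 ± 0.19 and for Ifi213 it was 0.46 ± 0.25 on the log2 scale. Aim2, the inflammasome sensor, went from 15.9 ± 5.87 to 19.7 ± 3.19 CPM, with a difference of 0.31 ± 0.19. None of these 3 passed the threshold (edgeR adjusted p from 0.331 to 0.402), and 4 of the 8 members had an unadjusted p under 0.05, as had 2800 of all 15505 genes tested. Among the 5 other p200 genes tested, Ifi206 rose, from 14.3 ± 7.96 to 33.6 ± 10.0 CPM (1.24 ± 0.27, edgeR adjusted p = 0.0079), and Mndal, Ifi208, Ifi214 and Ifi203-ps had adjusted p of 0.342 or more.

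Neither call held in every fit. Fitting the 10 WT libraries by themselves left neither past the threshold (edgeR adjusted p = 0.0888 for Ifi205 and 0.209 for Ifi207), and with the replicate number as a block Ifi205 did not (edgeR adjusted p = 0.072). No member passed without WT aPD1 replicate 1, 2 or 5 or without WT IgG1 replicate 1, 2 or 5, and 1 passed (Ifi207) without WT aPD1 replicate 3. Without WT IgG1 replicate 3 the members past the threshold were Ifi204, Ifi205 and Ifi211, and with B2mKO aPD1 replicate 2 left out as well they were 6 (Ifi204, Ifi205, Ifi207, Ifi209, Ifi211 and Aim2). The log2 fold change of Ifi205 stayed between 0.79 and 1.04 over all fits and that of Ifi207 between 0.69 and 1.14.

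Markers of immune cells differed between the same groups. The summed level of the 12 macrophage and monocyte markers was 1393 to 5721 CPM in WT IgG1 and 2621 to 5981 CPM in WT aPD1 libraries, and 2 of the 12 rose. Dendritic cell markers summed to 42.4 to 87.4 and 60.2 to 199.9 CPM, and 3 of 6 tested rose. T cell markers summed to 3.83 to 13.0 and 7.34 to 40.8 CPM, and 1 of 8 rose. NK cell markers summed to 7.55 to 11.7 and 9.55 to 32.0 CPM, and 1 of 4 rose. No gene of these 4 lists was at 0 in either group. Of the neutrophil markers 1 of 3 tested rose, and of the simple epithelium markers 1 of 5. Fewer cells of a type and less RNA per cell cannot be told apart in RNA from whole tumour pieces, and the part of these cells in the rise of Ifi205 and Ifi207 was not tested.

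Genes that act around the family moved in the same comparison. Of 13 interferon receptor, JAK, STAT and IRF genes, 5 rose and none fell, with Ifng, which encodes type II interferon, at 0.262 and 3.93 CPM (3.91 ± 0.67, edgeR adjusted p = 0.0012). Of 13 inflammasome genes, 5 rose and none fell, led by Nlrp3, another inflammasome sensor, at 8.51 and 21.1 CPM (1.31 ± 0.24, edgeR adjusted p = 0.00213). Of 12 tested genes of cytosolic DNA sensing, 3 rose and none fell, with Samhd1, which breaks down deoxynucleotides, at 169.4 and 375.9 CPM (1.15 ± 0.19). The gene of STING (Sting1) was not matched by that symbol, so it is in none of the counts of this list.

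In B2mKO tumours the same treatment moved no member past the threshold in edgeR, with 0 of 8 at an unadjusted p under 0.05 and 0 by DESeq2 or limma voom. Of all genes tested, 0% passed, and 516 of the 15505 had an unadjusted p under 0.05 (edgeR). The differences ran from -0.32 ± 0.18 for Ifi203 to 0.34 ± 0.19 for Aim2, with a median of -0.03. Ifi205 was at 32.7, 29.6, 20.0, 24.2 and 28.5 CPM in the controls, against 23.2, 28.6, 12.3, 35.1 and 25.7 CPM after aPD1, and the treated libraries lay on both sides of the controls.

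In Jak1KO tumours no member passed either (edgeR), with 0 by DESeq2 and 0 by limma voom, and again 0% of all genes tested passed. An unadjusted p under 0.05 was found for 0 of the 8 members and 174 of the 15505 genes (edgeR). Of the 8 means, 7 were higher with aPD1, by at most 0.51 ± 0.28 for Ifi205, whose controls were at 4.54, 3.94, 4.61, 3.27 and 6.89 CPM and whose treated libraries were at 8.85, 3.51, 8.54, 4.40 and 7.72 CPM. Replicates 1, 3 and 5 of the treated group were above all the controls and replicates 2 and 4 were not. Aim2 had the same mean in both groups, 14.3 ± 1.89 CPM (IgG1) and 14.3 ± 2.11 CPM (aPD1).

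The difference between the effects was tested itself. The aPD1 effect in B2mKO minus that in WT tumours had no member past the threshold in edgeR, by DESeq2 or by limma voom, where 0.103% of genes passed, while 4 of the 8 members and 2559 of the 15505 genes had an unadjusted p under 0.05. The lowest was that of Ifi207, with a difference of -0.97 ± 0.31 (edgeR unadjusted p = 0.00392, adjusted p = 0.195), followed by Ifi205 with -1.02 ± 0.36. Without WT IgG1 replicate 4, Ifi207 passed with -1.30 (edgeR adjusted p = 0.015). The effect in Jak1KO minus that in WT tumours had 0 members past the threshold in edgeR, DESeq2 and limma voom. In edgeR 0% of all genes passed. An unadjusted p under 0.05 was found for 0 of the 8 members and 1285 of the 15505 genes (edgeR). The differences ran from -0.60 ± 0.31 for Ifi207 to -0.19 ± 0.26 for Ifi203. The rise of Ifi205 and Ifi207 in WT tumours was therefore not shown to differ from the change in either mutant.

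**Figure D2:**
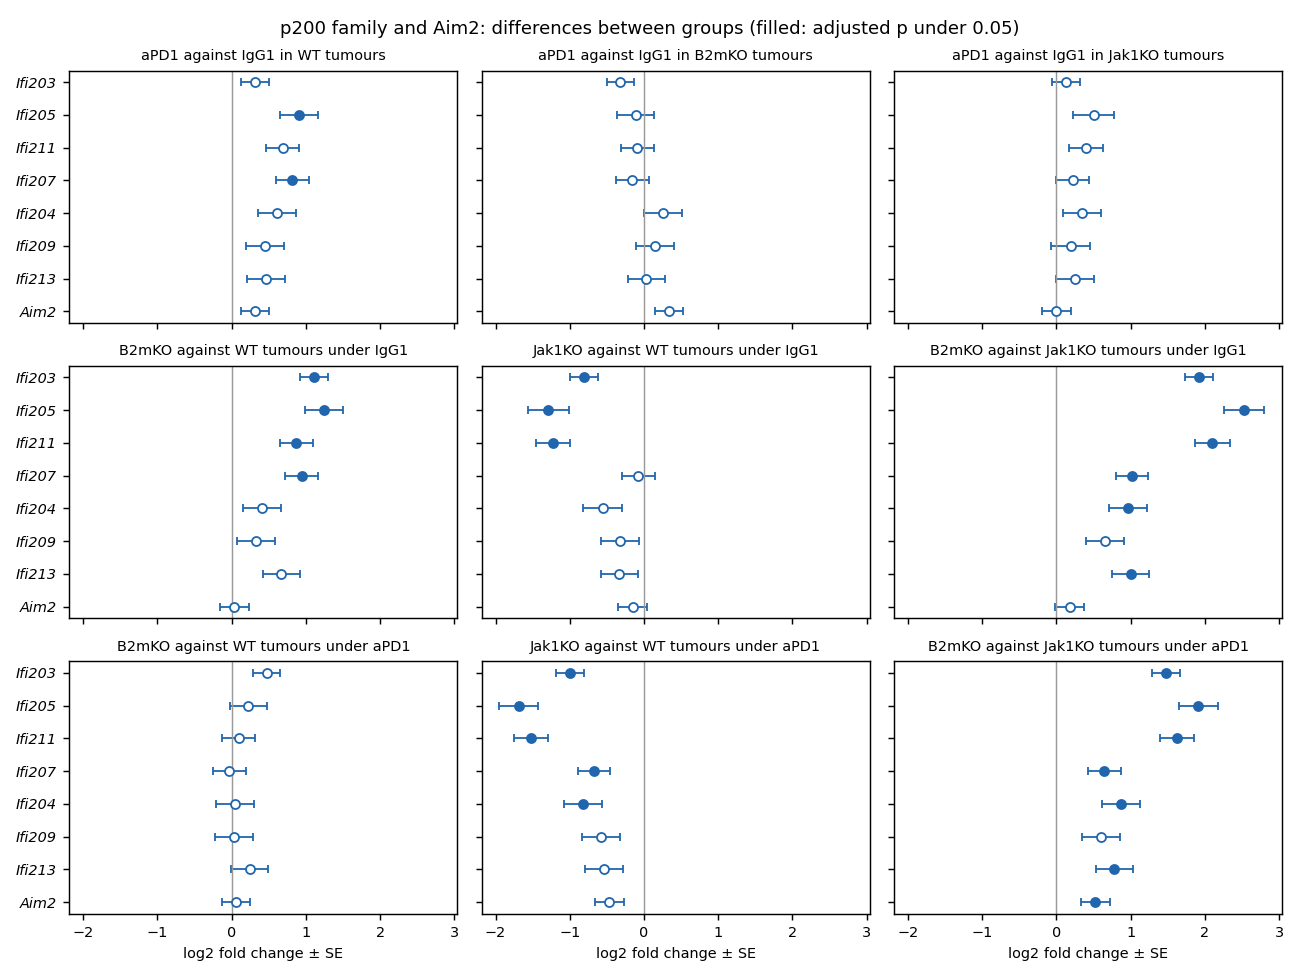
Log2 fold change of each of the 8 tested genes in 9 comparisons (points, horizontal axis; bars ± SE), with filled points for an edgeR adjusted p under 0.05. In the comparisons of B2mKO with Jak1KO tumours 6 genes (IgG1) and 7 genes (aPD1) are filled, and with aPD1 in the mutant tumours none is.

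Under IgG1 the members were higher in B2mKO than in WT tumours, a comparison of the genotypes under the control antibody. All 8 differences were positive, with a median log2 fold change of 0.77 beside 0.00 over all genes tested, and 4 of the 8 rose (Ifi203, Ifi205, Ifi207 and Ifi211), where 9.42% of all genes rose. This comparison and the ones of aPD1 in WT and of Jak1KO with WT share the 5 WT IgG1 libraries.

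The WT IgG1 libraries had 30.3, 47.0, 44.4, 70.5 and 33.3 CPM of Ifi203, and the B2mKO IgG1 libraries had 103, 102, 79.2, 89.8 and 111 CPM. The groups did not overlap. The log2 fold change was 1.11 ± 0.19, with an edgeR adjusted p of 0.000108. Ifi205 differed by 1.24 ± 0.26, also with no overlap (20.0 CPM or more in every B2mKO library, 15.5 or less in every WT library; edgeR adjusted p = 0.000937). Those 2 were the members with no overlap, which held for 5.8% of all genes in this direction.

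Ifi207 was at 73.1, 73.5, 65.7, 69.8 and 91.9 CPM in B2mKO IgG1 tumours, and only WT replicate 4 (70.3 CPM) was inside that range (0.94 ± 0.22, edgeR adjusted p = 0.00296). Ifi211 was at 67.5, 64.3, 49.6, 61.5 and 70.6 CPM, and WT replicate 3 (55.2 CPM) was above the lowest of them (0.87 ± 0.22, edgeR adjusted p = 0.00605). In a fit of those 2 groups alone Ifi211 missed the threshold (edgeR adjusted p = 0.0508). Ifi213 missed the threshold with 0.67 ± 0.25 (edgeR adjusted p = 0.0555), and passed it by DESeq2, by limma voom, with the replicate number as a block and without WT IgG1 replicate 4.

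Ifi204 (0.40 ± 0.26), Ifi209 (0.33 ± 0.26) and Aim2 (0.03 ± 0.19) had edgeR adjusted p of 0.27 or more. The 5 WT libraries had 10.5, 16.5, 25.7, 13.7 and 13.3 CPM of Aim2, the 5 B2mKO libraries had 14.5, 12.0, 19.4, 15.6 and 19.6 CPM, and both the highest and the lowest library were WT. Ifi204 passed without WT IgG1 replicate 3, and without that library and B2mKO aPD1 replicate 2 the count was 7, all tested members but Aim2. The 4 members that rose each carry the response element core printed above. Ifi213 also carries it, as does Ifi214 of the other p200 genes, and neither passed here (edgeR adjusted p = 0.0555 and 0.0645). Aim2 and Ifi209 do not carry it, and Ifi204 has no window. The carriers Ifi207 and Ifi213 did not pass in Jak1KO against WT tumours under IgG1, and neither did Ifi206, Ifi208 and Ifi214, carriers among the other p200 genes. The part of the element in these differences was not tested.

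Of the 5 other p200 genes, 4 rose: Ifi208 by 1.27 ± 0.29, Ifi206 by 1.24 ± 0.27, Ifi203-ps by 0.93 ± 0.31 and Mndal by 0.86 ± 0.19 on the log2 scale. In the JAK-STAT-IRF list 4 of 13 rose, among them Stat2 (142 to 230.9 CPM) and Irf9 (50.3 to 70.3 CPM), both parts of the complex that binds the response element, while none fell. Of the DNA-sensing genes 3 of 12 rose and none fell: Zbp1, a sensor of Z-form nucleic acid (166.5 to 363.5 CPM, 1.13 ± 0.21), Irf7 (122 to 288 CPM, 1.24 ± 0.25) and Ikbke. Of 13 inflammasome genes none rose and 1 fell, Casp4 (64.3 to 45.5 CPM). Macrophage and monocyte markers summed to 2337 to 3681 CPM in B2mKO IgG1 libraries, inside the WT IgG1 range, and 0 of 12 were called, while 3 of 5 fibroblast markers rose (1713 to 2359 CPM summed in WT, 2318 to 4748 in B2mKO). NK cell markers summed to 7.55 to 11.7 CPM in WT and 9.53 to 16.5 CPM in B2mKO, and 2 of 4 rose. Of the dendritic cell and of the simple epithelium markers 1 rose in each list, of 6 and 5 tested, and 1 of 3 adipocyte and 1 of 2 keratinocyte markers fell. The part of these cells in the result was not tested.

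With aPD1 in both genotypes, 0 of the 8 members differed between B2mKO and WT tumours (edgeR, and 0 also by DESeq2 and limma voom), where 20.4% of all genes did. An unadjusted p under 0.05 was found for 1 of the 8 members and 4980 of the 15505 genes (edgeR). The largest difference was that of Ifi203, with 74.7, 57.1, 64.6, 98.2 and 93.9 CPM in B2mKO and 49.7, 60.4, 52.2, 54.3 and 63.6 CPM in WT (0.47 ± 0.18, edgeR adjusted p = 0.0711). Without B2mKO aPD1 replicate 2 it passed (0.56, edgeR adjusted p = 0.0309). The other 7 differences were between -0.03 ± 0.22 and 0.24 ± 0.25. Ifi208, an other p200 gene, was higher in B2mKO with both antibodies (1.23 ± 0.29 with aPD1).

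The members were lower in Jak1KO than in WT tumours. Under IgG1 all 8 differences were negative, with a median of -0.44, and 3 of the 8 fell (Ifi203, Ifi205 and Ifi211), where 11% of all genes fell. Under aPD1 all 8 were negative with a median of -0.75, and 5 fell (Ifi203, Ifi204, Ifi205, Ifi207 and Ifi211), where 12.4% of all genes fell.

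Ifi211 was at 14.5, 14.6, 15.2, 11.1 and 17.6 CPM in Jak1KO IgG1 tumours, below every WT IgG1 library. It fell by 1.23 on the log2 scale (SE 0.23, edgeR adjusted p = 0.000295). With aPD1 it was at 22.1, 13.7, 20.6, 15.5 and 23.9 CPM in Jak1KO tumours, below every WT aPD1 library, and fell by 1.52 (SE 0.23, edgeR adjusted p = 1.32e-05).

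Ifi205 fell by 1.29 (SE 0.27, edgeR adjusted p = 0.00118) under IgG1 and by 1.69 (SE 0.26, edgeR adjusted p = 2.47e-05) under aPD1, with no overlap in either comparison. Ifi203 was at 29.0, 22.9, 27.0, 17.9 and 31.5 CPM in Jak1KO IgG1 tumours, where the highest passed the lowest WT library (30.3 CPM), and fell by 0.81 (SE 0.19, edgeR adjusted p = 0.00276). Under aPD1 it fell by 1.00 (SE 0.19), with no overlap. Groups did not overlap for 2 of the 8 members under IgG1 and for 4 under aPD1, against 8.09% and 10.3% of all genes in this direction.

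Ifi207 did not pass under IgG1. It was at 39, 37.9, 43.3, 28.3 and 35.8 CPM in Jak1KO tumours, within the range of the WT IgG1 libraries, with a difference of -0.08 ± 0.22 (edgeR adjusted p = 0.841). Under aPD1 Ifi207 was lower by a log2 fold change of -0.68 ± 0.22 (edgeR adjusted p = 0.0273) and Ifi204 by -0.82 ± 0.26 (edgeR adjusted p = 0.0228). Both were no longer past the threshold without replicate 2 of either group or Jak1KO aPD1 replicate 4, and Ifi207 also without WT aPD1 replicate 5, so that 3 members were left in each of the former fits. In a fit of only the 2 aPD1 groups, all 8 fell.

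Aim2 was at 16.5, 11.7, 14.6, 13.1 and 15.5 CPM in Jak1KO IgG1 tumours and differed from WT by -0.15 ± 0.20 under IgG1 (edgeR adjusted p = 0.623) and by -0.47 ± 0.19 under aPD1 (edgeR adjusted p = 0.0905). Ifi209 and Ifi213 missed the threshold under both antibodies, with differences from -0.58 to -0.32. Aim2 and Ifi209 passed under aPD1 without WT IgG1 replicate 3 and B2mKO aPD1 replicate 2. Ifi204 passed under IgG1 without WT IgG1 replicate 1 (-0.75, edgeR adjusted p = 0.0303). Among the other p200 genes, Mndal fell under both antibodies, by 1.22 (SE 0.19) and 1.44 (SE 0.19), and Ifi206 under aPD1.

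Casp1, the protease of the inflammasome, fell from 97.5 to 20.3 CPM under IgG1 and from 132 to 21.5 CPM under aPD1 (by 2.26 and 2.62, SE 0.20 in both). Of the 13 inflammasome genes, which include sensors other than Aim2, 3 fell under IgG1 and 9 under aPD1, with none higher and list medians of -0.02 and -0.79 on the log2 scale. The 12 tested genes of cytosolic DNA sensing went both ways, with 1 higher and 3 lower under IgG1 and 2 higher and 4 lower under aPD1. Their list medians were 0.05 and -0.34. In the JAK-STAT-IRF list 5 of 13 fell under IgG1 and 8 under aPD1, with none higher. This list includes Jak1, the mutated gene itself, so the counts are not independent of the genotype. Jak1 was at 238.7 CPM in WT aPD1 and 72.4 CPM in Jak1KO aPD1 tumours. Of the 12 macrophage and monocyte markers 1 was higher and none lower under IgG1 (2422 to 3374 CPM summed in Jak1KO), and 1 was higher and 2 lower under aPD1 (2299 to 3735 CPM summed). Of 6 dendritic cell markers 1 was higher and 3 lower under aPD1 (24.7 to 50.7 CPM summed in Jak1KO, 60.2 to 199.9 in WT), and 1 was lower under IgG1. T cell markers summed to 8.14 to 35.8 CPM in Jak1KO IgG1 and 3.83 to 13.0 CPM in WT IgG1 tumours, and 3 of 8 were higher. Of 4 NK cell markers 1 was higher under IgG1 and 2 were lower under aPD1, and of 5 fibroblast markers 1 was lower under IgG1 and 2 were higher under aPD1. In each of the other marker lists at most 1 gene was called per antibody. The part of these cells in the fall of the members was not tested.

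The widest gap was between the 2 mutants. Under IgG1, 6 of the 8 members were higher in B2mKO than in Jak1KO tumours, all but Ifi209 and Aim2, where 14.6% of all genes were higher, and the 5 libraries of each group did not overlap for those 6 (14% of all genes). Ifi205 was 2.53 ± 0.27 higher on the log2 scale (5.78-fold, edgeR adjusted p = 4.37e-08), Ifi211 was 2.10 ± 0.23 higher (4.29-fold) and Ifi203 was 1.92 ± 0.19 higher (3.78-fold). Ifi207, Ifi213 and Ifi204 were higher by 1.02 ± 0.22, 1.00 ± 0.25 and 0.96 ± 0.26. Ifi209 missed the threshold with 0.65 ± 0.26 (edgeR adjusted p = 0.0579) and passed it by DESeq2 (adjusted p = 0.0379), in a fit of those 2 groups alone (edgeR adjusted p = 0.0102), without WT IgG1 replicate 3 and B2mKO aPD1 replicate 2 (edgeR adjusted p = 0.015), and without B2mKO IgG1 replicate 2. Aim2 was at 16.2 ± 3.26 and 14.3 ± 1.89 CPM (0.18 ± 0.20, edgeR adjusted p = 0.531).

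Under aPD1, 7 of the 8 were higher in B2mKO, where 15.1% of all genes were, and 4 of the 8 had no overlap (10.6% of all genes). Ifi205 was higher by 1.91 ± 0.26, Ifi211 by 1.62 ± 0.23 and Ifi203 by 1.47 ± 0.19. Aim2 was the weakest of the 7, with 15.4, 30.2, 18.6, 18.2 and 20.1 CPM in B2mKO and 17.0, 13.3, 13.6, 11.7 and 15.8 CPM in Jak1KO tumours (0.52 ± 0.19, edgeR adjusted p = 0.0435). The highest of these was B2mKO aPD1 replicate 2. Aim2 missed the threshold by limma voom (adjusted p = 0.0507) and with no filter on low counts (edgeR adjusted p = 0.0795), and also without that library, without B2mKO aPD1 replicate 5 or without Jak1KO aPD1 replicate 2, 3 or 4. Ifi207 was lost without B2mKO replicate 4 or 5 or Jak1KO replicate 2 or 4, and Ifi213 without B2mKO replicate 4 or 5 or Jak1KO replicate 2, so that the count was 4 (Ifi203, Ifi204, Ifi205 and Ifi211) without B2mKO aPD1 replicate 5 or Jak1KO aPD1 replicate 2. Ifi209 was the member that missed the threshold (0.61 ± 0.26, edgeR adjusted p = 0.0765), and it passed in a fit of those 2 groups alone.

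Around the family, Zbp1 (42.0 and 363.5 CPM, 3.11 ± 0.23), Irf7 (2.34 ± 0.26) and Mndal (2.09 ± 0.20) were higher in B2mKO than in Jak1KO IgG1 tumours. Casp1 was higher as well (20.3 and 72.9 CPM, 1.84 ± 0.20). Of the 12 tested DNA-sensing genes 3 were higher and 1 was lower, with a list median of 0.16. Of the 13 JAK-STAT-IRF genes, which include the mutated gene Jak1, 7 were higher and 1 was lower. Of the 13 inflammasome genes 4 were higher and none was lower. None of the 12 macrophage and monocyte markers was called in this comparison, with sums of 2337 to 3681 CPM in B2mKO and 2422 to 3374 CPM in Jak1KO libraries, while 3 of 5 fibroblast markers were higher in B2mKO (2318 to 4748 against 1294 to 1679 CPM). Of the dendritic cell markers 2 of 6 were higher, and of the NK cell, neutrophil and simple epithelium markers 1 was higher in each list, while 2 of 3 adipocyte markers and the 1 B cell marker tested were lower. Under aPD1, 2 of the 12 macrophage and monocyte markers were higher in B2mKO (3192 to 5732 against 2299 to 3735 CPM summed), as were 3 of 4 NK cell markers (6.14 to 26.2 against 5.73 to 15.0 CPM) and 3 of 4 endothelial markers (86.6 to 183.6 against 62.9 to 96.0 CPM). In the same comparison 2 of 5 fibroblast markers (2706 to 4044 against 1380 to 1761 CPM) and 3 of 5 simple epithelium markers (5.58 to 29.7 against 2.03 to 4.41 CPM) were higher, and 2 of 6 skeletal muscle and 1 of 2 keratinocyte markers were lower. The part of these cells in the members' differences was not tested.

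The make-up of the family is described here by shares, with no test. Ifi211 made up 29.8 ± 2.6% of the summed RPKM of the 9 genes in B2mKO IgG1, 26.7 ± 3.07% in WT IgG1 and 17.2 ± 0.931% in Jak1KO IgG1 tumours, and was replaced as the highest member in Jak1KO IgG1 tumours by Ifi204 (23.5 ± 1.46%) and Ifi207 (22.7 ± 2.26%). Aim2 made up 3.95 ± 0.833% in B2mKO IgG1, 6.64 ± 1.52% in WT IgG1 and 8.64 ± 1.02% in Jak1KO IgG1 tumours. Ifi205 ranged from 2.31 ± 0.418% in Jak1KO IgG1 to 5.49 ± 0.951% in B2mKO IgG1 tumours. These shares carry the uncertainty of reads shared between members.

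**Figure D3:**
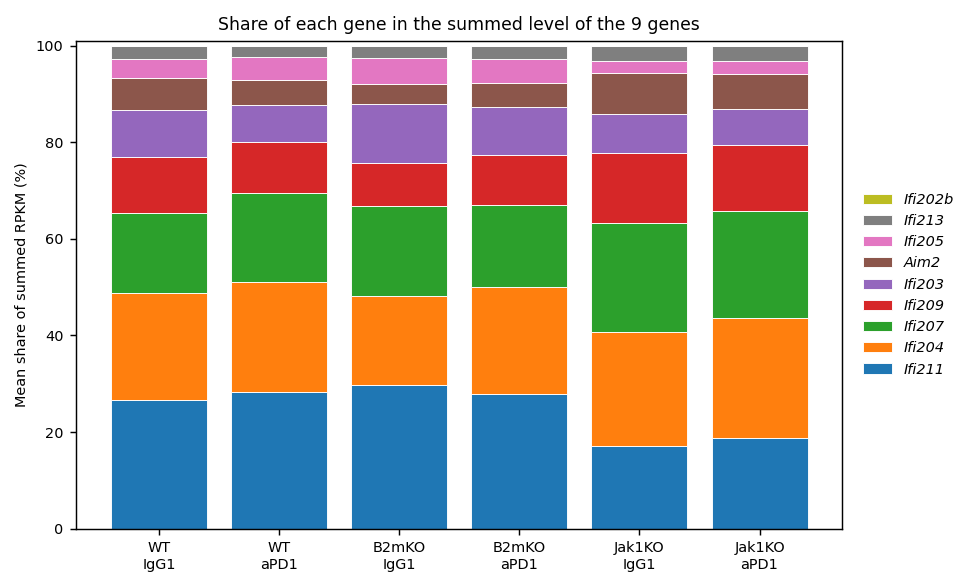
Mean share of each gene in the summed RPKM of the 9 genes (vertical axis, percent) in the 6 groups (bars, 5 libraries each). The share of Ifi211 is lower in both Jak1KO groups, and Ifi202b is too small to see.

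Some members moved together more closely than others across the 30 libraries. Over the 28 pairs of tested members, Pearson's r of log2 CPM ran from 0.285 (Ifi207 and Aim2) to 0.983 (Ifi205 and Ifi211), with a median of 0.784, and within groups, after taking out the group means, from -0.117 to 0.951 with a median of 0.617. Libraries of a group share genotype and treatment, so these values are a description with no test. Ifi205 and Ifi211, which also share sequence, kept r = 0.889 within groups. Ifi204 and Ifi209 kept 0.951, and both kept a tie to Aim2 (0.794 and 0.763). Ifi207 was close to Ifi203 within groups (0.83) and not to Aim2 (-0.117).

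The 2 libraries that stood apart over all genes, WT IgG1 replicate 3 and B2mKO aPD1 replicate 2, are in the correlations above. The correlations were not computed without them. WT IgG1 replicate 3 had the highest level of its group for Ifi204 (110.2 CPM), Ifi209 (55.1), Ifi211 (55.2) and Aim2 (25.7), and the second lowest for Ifi207 (27.7). B2mKO aPD1 replicate 2 did the same, with the highest Ifi204 (118 CPM), Ifi209 (50.3), Ifi211 (75.5) and Aim2 (30.2) of its group and the lowest Ifi207 (35.8) and Ifi203 (57.1). WT IgG1 replicate 4 had the highest Ifi203 (70.5 CPM), Ifi207 (70.3) and Ifi213 (22.4) of its group.

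The genes outside the set with the most similar pattern over the 30 libraries differed between members. For Ifi205 and Ifi211 they were led by Dhx58, an RNA helicase of the RIG-I family (r = 0.979 and 0.98), and Zbp1 (0.969 and 0.972), followed by Mndal for Ifi205 (0.967) and Sp110 for Ifi211 (0.971). For Ifi203 they were Sp100 (0.969), Eif2ak2, the kinase PKR (0.967), and Slfn8 (0.966). For Ifi204 and Ifi209 they included Slfn1 (0.949 and 0.957) and Fcgr1, the high-affinity receptor for IgG and 1 of the macrophage markers (0.933 and 0.96), with Slfn2 for Ifi204 (0.94) and Ms4a4c for Ifi209 (0.941). For Ifi207 they were Ifi206 (0.931), Grn, a lysosomal growth factor (0.91), and BC005537 (0.906), for Ifi213 Gm5431 (0.911), Trim30b (0.899) and Phf11a (0.88), and for Aim2 Ms4a6b (0.933), Tmsb4x (0.914) and Lat2 (0.913). Likeness of pattern in these tumours says nothing on shared function.

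The mean standardised level of the 8 tested members was followed beside the macrophage markers, again as a description. Its median by group was -0.493 in WT IgG1, 0.696 in WT aPD1, 0.615 in B2mKO IgG1, 0.929 in B2mKO aPD1, -0.893 in Jak1KO IgG1 and -0.485 in Jak1KO aPD1 tumours, in SD units across the 30 libraries. WT IgG1 libraries spread widely, from -1.58 in replicate 1 to 0.522 in replicate 3, and replicate 1 also had the lowest mean of the macrophage markers of all 30 libraries (6.11 log2 CPM). The correlation with the mean of the 12 macrophage and monocyte markers was 0.744 over 30 libraries and 0.767 within groups. The 12 include Fcgr1, which was also among the genes most like Ifi204 and Ifi209. Within groups, the family mean had r = 0.454 with Csf1r, 0.688 with Cd68 and 0.681 with Adgre1. Members differed: r with Csf1r ran from -0.056 for Ifi205 to 0.651 for Ifi207, and r with Adgre1 from 0.147 for Ifi205 to 0.741 for Ifi209. The 5 Jak1KO IgG1 libraries had marker means of 6.91 to 7.29 and family means of -0.715 or less. The 5 B2mKO IgG1 libraries had marker means of 6.90 to 7.61 and family means of 0.372 or more. The part of macrophages or other cells in this difference was not tested.

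**Figure D4:**
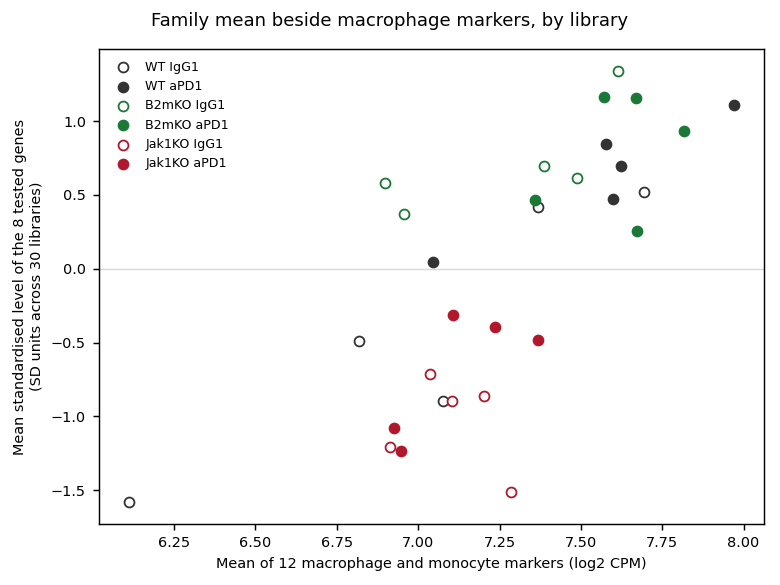
Mean standardised level of the 8 tested genes (vertical axis, SD units across 30 libraries) against the mean of 12 macrophage and monocyte markers (horizontal axis, log2 CPM), 1 point per library (open IgG1, filled aPD1). All 10 Jak1KO libraries lie below 0 and all 10 B2mKO libraries above 0, and their marker means overlap in part.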

How the data were processed

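RNA was measured in 30 libraries of MC38 tumours. The authors deposited raw read counts per gene, made with featureCounts 2.0.0 on Ensembl release 99 (GRCm38), without strand, without multi-mapping reads and with mates counted singly, per the file headers. STAR 2.5.2a, FastQC 0.11.2, Cufflinks 2.2.1, edgeR 3.24.3 and mm10 are named in the submitters' processing notes. The deposited tables also give each gene's exon length in bases, used here for RPKM. Each of the 30 tables of single libraries was identical to its column in the series table. The header of WT aPD1 replicate 2 names a differently named alignment file, and its counts were used as deposited.

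All later steps were run in R 4.3.3 (edgeR 4.0.16, limma 3.58.1, DESeq2 1.42.0). Symbols were matched by Ensembl ID (55144 of 55471). The filter filterByExpr (by group, count 10 or more, total 15 or more) kept 15505 genes, and TMM factors were 0.94 to 1.043. All libraries entered 1 edgeR quasi-likelihood fit with 6 group means, p-values were Benjamini-Hochberg adjusted over all genes tested, and the threshold was 0.05. Standard errors are the log2 fold change over the square root of F. Log2 CPM used a prior count of 2. The steps were tested on simulated data. No 2 replicates agreed within sampling noise (60 pairs, chi-square divided by degrees of freedom 6.49 to 205.8). Windows were aligned globally (match 1, mismatch -1, gap opening -2, extension -1), and shared words came from GENCODE transcripts of GRCm38.

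The members, the lists of related genes and cell markers and the alternatives were chosen with earlier results of these data known. The text names all members and other p200 genes (Mnda, Pyhin1, Pydc3 and Pydc4 are other names of Ifi211, Ifi209, Ifi208 and Ifi213), up to 4 genes with the smallest p per list and comparison (1 such gene is not reported here), and the 3 genes most like each member.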

Additional observations from a re-analysis of the deposited data

How the results depend on the processing

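Of 27 differences of members past the threshold, 19 stayed past it in every fit run, with the same sign in all of them (2 normalizations, DESeq2, limma voom, no filter, a replicate block, fits of the compared groups alone, and libraries left out). Of 61 not past it, 15 passed in at least 1 fit. Counts that moved by more than 1.5 times were those of aPD1 in WT tumours (2; 0 when those groups were fitted alone, 6 without WT IgG1 replicate 3 and B2mKO aPD1 replicate 2, 0 to 3 leaving out 1 library), of B2mKO against WT tumours under IgG1 (4; 7 without those 2 libraries) and under aPD1 (0; 1 without those 2, 0 to 1 leaving out 1), of Jak1KO against WT under aPD1 (5; 8 in the fit of those groups alone, 3 to 5 leaving out 1), of B2mKO against Jak1KO under aPD1 (7; 4 to 7 leaving out 1) and of the aPD1 effect in B2mKO minus WT (0; 0 to 1 leaving out 1). A fit of fewer groups estimates the spread from fewer libraries. The cause of the other changes was not tested.

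Replicate numbers showed no pairing over all groups together. Over 75 same-numbered pairs of libraries the correlation of deviations from the group means ran from -0.587 to 0.464, with a median of -0.004 and 25 pairs above 0.1. Differently numbered pairs ran from -0.535 to 0.754, with a median of -0.007. Same-numbered pairs within a genotype ran from -0.147 to 0.464 in WT, -0.163 to 0.255 in B2mKO and 0.094 to 0.355 in Jak1KO. Pairing within a genotype was not tested. With the replicate number as a block, 1 member (Ifi207) passed for aPD1 in WT tumours and the other counts moved by less than 1.5 times.

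Differences near 0, none past the threshold, changed sign in some fits. For Aim2 with aPD1 in Jak1KO tumours the log2 difference was 0.0014 with DESeq2 size factors, 0.001 by DESeq2, 0.0004 by limma voom, 0.0128 with no filter, 0.0062 in those groups alone and -0.0713 to 0.0634 leaving out 1 library. By limma voom, Ifi207 in Jak1KO against WT under IgG1 was 0.0228 and Aim2 in the aPD1 effect of B2mKO minus WT was -0.0547 (with no filter -0.0014). Without the pair of libraries, Ifi207 with aPD1 in B2mKO was 0.0058, Aim2 in Jak1KO against WT under IgG1 was 0.0713, Aim2 in the aPD1 effect of B2mKO minus WT was -0.393, and in B2mKO against WT under aPD1 Ifi204 was -0.0386, Ifi207 0.142, Ifi209 -0.031 and Aim2 -0.109. Leaving out 1 library gave, in B2mKO against WT under aPD1, -0.123 to 0.143 for Aim2, -0.0701 to 0.151 for Ifi204, -0.133 to 0.129 for Ifi207, -0.08 to 0.156 for Ifi209 and -0.0097 to 0.241 for Ifi211; with aPD1 in B2mKO, -0.267 to 0.0609 for Ifi205, -0.259 to 0.0032 for Ifi207, -0.193 to 0.058 for Ifi211 and -0.0908 to 0.244 for Ifi213; in Jak1KO against WT under IgG1, -0.273 to 0.0888 for Aim2, -0.207 to 0.247 for Ifi207 and -0.513 to 0.005 for Ifi209; for Aim2, -0.0895 to 0.272 in B2mKO against WT under IgG1 and -0.215 to 0.147 in the aPD1 effect of B2mKO minus WT. Depth limits only Ifi202b, whose 10 counts allow no comparison.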
